A study of Mus musculus with 4 samples.

Results

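Macrophage, Kupffer cell and monocyte genes were followed in the liver of Sox17+/- mouse fetuses, which are heterozygous for the endoderm and endothelial transcription factor gene Sox17, and of wildtype fetuses. The set was a fixed list of 36 genes, each represented by its brightest probe set among those annotated to that gene alone, out of 18193 genes represented in this way on the array. Of the 36 genes, 5 are Kupffer cell genes (Clec4f, Vsig4, Timd4, Cd5l and Marco) and 31 are shared more widely among macrophages and monocytes. The 34 genes above a filter that kept the brighter 50% of probe sets (mean signal of at least 89.7) were tested, among 11676 tested genes in all, and Cd163 and Siglec1 lay below it.

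Kupffer cells are the resident macrophages of the liver sinusoids. In the fetus they arise from yolk sac and fetal liver progenitors, and they take up particles, dead cells and the nuclei that erythroblasts expel while the liver makes blood. They depend on signalling through the CSF1 receptor and on the transcription factor PU.1. Resident Kupffer cells are recognised by surface proteins such as CLEC4F, VSIG4 and TIM-4, whereas CCR2 marks monocytes that can enter tissues from the blood.

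The groups were Sox17+/- liver and wildtype liver, both of C57BL/6 background and taken on day 17 of gestation, with 2 biological replicates and 1 Affymetrix array per replicate. Fetuses came from C57BL/6 females mated with Sox17+/- males, and no Sox17 mutation is stated for the mothers. No source used here gives the kind of Sox17 allele, the sex of the fetuses or the number of fetuses behind a replicate. The liver was separated from the biliary system before RNA was extracted, and macrophages were not purified, so that fewer macrophages and less RNA per macrophage cannot be told apart in these signals.

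Values are MAS5 signals on a linear scale, and each array had a mean of 500 after the lowest and highest 2% of its probe sets were trimmed. Median signals were 92.6 and 87.1 on the Sox17+/- arrays and 84.7 and 103 on the wildtype arrays. The hepatocyte genes Alb and Afp were at 22768 to 49608 on all arrays, and both were higher on the replicate 1 array of each genotype. Alb had 42354 and 22768 on the Sox17+/- arrays, against 40785 and 23777 on the wildtype arrays. Afp had 49608 and 28035 on the Sox17+/- arrays, against 49260 and 30256 on the wildtype arrays. Sox17 had signals of 139 and 124 on the Sox17+/- arrays, against 244 and 264 on the wildtype arrays, on its brighter probe set, and 105 and 99.6 against 238 and 167 on the other. Both probe sets were lower on both Sox17+/- arrays. Where they lie relative to the mutation is not stated. All 5 Kupffer genes passed the filter on dim signals, with signals of at least 130 on every array. The small number of arrays limits the precision of every value below.

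The Kupffer cell genes did not share a direction. Vsig4 and Clec4f had lower signals in Sox17+/- liver, Marco had higher signals, Timd4 was slightly lower and Cd5l was level with wildtype. None passed limma's test after Benjamini-Hochberg adjustment over all 22519 tested probe sets.

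The promoters of these 5 genes are printed because the genes share a cell type and differed in direction. Each is the 250 bases before the start of the gene in the RefSeq promoter table (GRCm38.p6), written 5′ to 3′ on the strand of the gene. Capitals mark matches to GGAAGT, the core recognised by ETS factors such as PU.1 and Spi-C, on either strand.
Vsig4, chrX:96293439-96293688, minus strand: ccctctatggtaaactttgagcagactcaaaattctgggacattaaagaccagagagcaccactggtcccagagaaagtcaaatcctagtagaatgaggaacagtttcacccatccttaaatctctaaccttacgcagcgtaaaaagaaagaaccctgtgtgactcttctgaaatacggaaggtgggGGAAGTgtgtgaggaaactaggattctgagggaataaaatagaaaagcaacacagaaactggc
Clec4f, chr6:83656117-83656366, minus strand: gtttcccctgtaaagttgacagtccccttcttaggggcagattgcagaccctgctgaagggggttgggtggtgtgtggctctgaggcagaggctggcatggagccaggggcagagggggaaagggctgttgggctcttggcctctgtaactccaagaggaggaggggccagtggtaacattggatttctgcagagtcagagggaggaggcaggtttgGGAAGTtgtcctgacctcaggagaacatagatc
Timd4, chr11:46810549-46810798, plus strand: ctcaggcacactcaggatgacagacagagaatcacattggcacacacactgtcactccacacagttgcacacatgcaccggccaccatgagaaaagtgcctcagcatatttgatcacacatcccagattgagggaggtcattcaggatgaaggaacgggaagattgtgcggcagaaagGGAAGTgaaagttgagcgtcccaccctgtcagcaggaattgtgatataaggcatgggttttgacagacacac
Cd5l, chr3:87357631-87357880, plus strand: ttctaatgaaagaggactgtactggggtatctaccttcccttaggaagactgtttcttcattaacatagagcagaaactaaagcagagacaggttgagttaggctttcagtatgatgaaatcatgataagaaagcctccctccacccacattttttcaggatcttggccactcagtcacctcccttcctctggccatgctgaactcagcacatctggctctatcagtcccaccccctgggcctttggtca
Marco, chr1:120505025-120505274, minus strand: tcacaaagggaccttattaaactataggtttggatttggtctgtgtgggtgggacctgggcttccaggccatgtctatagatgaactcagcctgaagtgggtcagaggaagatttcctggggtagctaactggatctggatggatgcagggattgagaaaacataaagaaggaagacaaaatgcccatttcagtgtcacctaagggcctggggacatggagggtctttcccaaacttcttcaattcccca

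Vsig4, Clec4f and Timd4 each held 1 match to GGAAGT, which began 63, 33 and 72 bases before the start, and Cd5l and Marco held 0. Of all 32851 promoters in the table, 19.7% held this motif within the same 250 bases. Counted by gene, with a gene of several promoters counted if any held it, 10 of the 27 member genes in the table held GGAAGT, Spic among them, against 22.2% of all 27025 genes. The MAF motif TGCTGA had 2 matches each in Timd4 and Cd5l, 1 each in Clec4f and Spic and 0 in Vsig4 and Marco. It was held by 16.1% of all promoters, and by 8 of the 27 member genes, against 18.0% of all genes. The SOX motif AACAAT was absent from the windows of all 5 Kupffer genes and was held by 9.42% of all promoters, and by 2 of the 27 member genes, against 10.9% of all genes. The RBPJ motif TGGGAA had 1 match each in Clec4f and Marco and 0 in Vsig4, Timd4 and Cd5l. It was held by 21.6% of all promoters, and by 9 of the 27 member genes, against 24.1% of all genes. Both strands were searched for each motif. GGAAGT and TGGGAA can share the letters GGAA, as their matches in Clec4f did. A match is a description of these letters and not a binding site.

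Vsig4 encodes a complement receptor through which Kupffer cells bind C3-coated particles. Its signals were 130 and 194 in Sox17+/- liver, against 811 and 364 in wildtype liver. The genotypes did not overlap, and the spread within wildtype was wide. The log2 difference was -1.68 (SE 0.43) on the log2(signal + 16) scale used throughout, and only 12 of the 11676 tested genes had a lower one. The unadjusted p was 0.011 and the adjusted p was 0.9999 in limma's test. The difference was -2.50 between the replicate 1 arrays and -0.86 between the replicate 2 arrays. Without the wildtype replicate 1 array it was -1.12, and without the wildtype replicate 2 array -2.24.

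Clec4f encodes a C-type lectin of Kupffer cells that binds galactose-bearing glycans. Its signals were 487 and 402 in Sox17+/- liver, against 1097 and 584 in wildtype liver, again without overlap. The log2 difference was -0.83 (SE 0.35) with an unadjusted p of 0.062. As for Vsig4, the wildtype replicate 1 array was the highest of the 4, and without it the log2 difference of Clec4f was -0.39.

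Marco encodes a scavenger receptor with a collagen-like stalk that binds bacteria and particles. Its signals were 5024 and 3274 in Sox17+/- liver, against 2257 and 1738 in wildtype liver. Both Sox17+/- arrays lay above both wildtype arrays, with a log2 difference of 1.03 (SE 0.30, unadjusted p = 0.018). A second Marco probe set gave 2759 and 1914 in Sox17+/- liver, against 1208 and 970 in wildtype liver, a log2 difference of 1.07. The difference was 1.15 between the replicate 1 arrays and 0.91 between the replicate 2 arrays, although the labels do not say that replicate numbers pair the arrays. With 1 array left out in turn, it ranged from 0.72 to 1.34. Of all tested genes, 110 had a larger positive difference than Marco.

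Timd4 encodes TIM-4, a receptor for phosphatidylserine on dying cells. Its signals were 515 and 626 in Sox17+/- liver, against 681 and 704 in wildtype liver, and the log2 difference of -0.28 (SE 0.21) had an unadjusted p of 0.24. Cd5l encodes a secreted scavenger protein of macrophages. Its signals were 6510 and 5705 in Sox17+/- liver, against 6458 and 5575 in wildtype liver. For Cd5l the arrays differed more by replicate number than by genotype, and the log2 difference was 0.02 (SE 0.21).

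**Figure D1:**
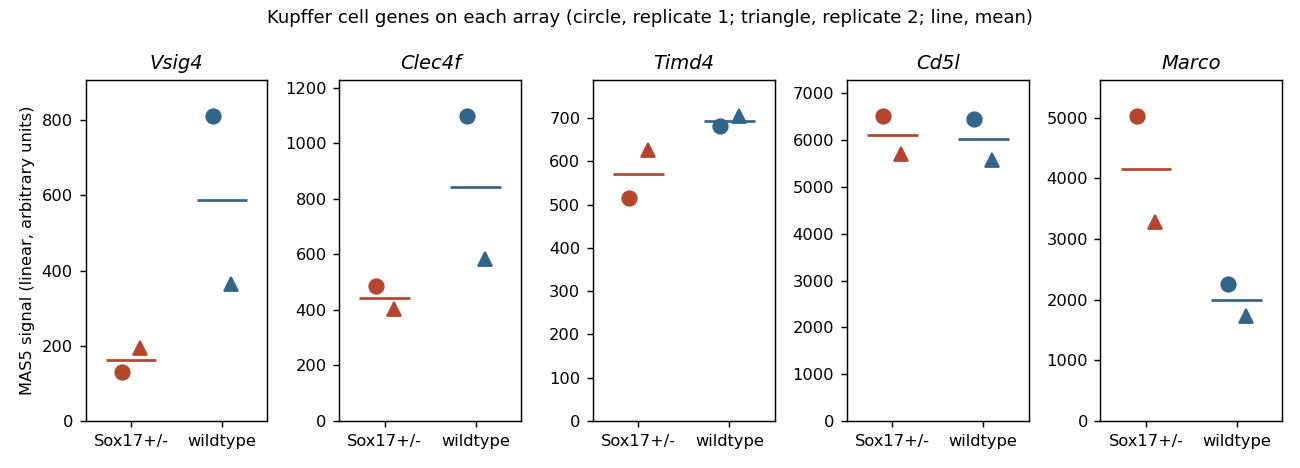
MAS5 signal (linear scale from 0, arbitrary units, a separate axis for each gene) of the 5 Kupffer cell genes on the 2 Sox17+/- and 2 wildtype arrays, with circles for replicate 1, triangles for replicate 2 and lines for the mean of a genotype. Vsig4, Clec4f and Timd4 were lower and Marco was higher on both Sox17+/- arrays, while the genotypes overlapped for Cd5l.

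The scavenger and identity receptors gave a mixed picture. Msr1, the class A scavenger receptor SR-A, had signals of 291 and 365 in Sox17+/- liver, against 248 and 189 in wildtype liver. Its log2 difference was 0.55 (SE 0.25, unadjusted p = 0.073), and both Sox17+/- arrays lay above both wildtype arrays. Of the other Msr1 probe sets above the filter, one gave a difference of 0.62 without overlap and the other 0.29 with overlap, at 161 and 109 in Sox17+/- liver, against 81.9 and 135 in wildtype liver.

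Csf1r, the receptor for CSF1 and IL-34 that macrophages need to survive, had signals of 5839 and 5976 in Sox17+/- liver, against 7235 and 6087 in wildtype liver. The genotypes did not overlap, but the log2 difference was only -0.17 (SE 0.21), and the gap between the closest arrays of the 2 genotypes was small. The mannose receptor gene Mrc1, which sinusoidal endothelium also expresses, had 1361 and 1808 in Sox17+/- liver, against 2108 and 1544 in wildtype liver. Its differences within replicate numbers were of opposite sign, -0.62 and 0.23.

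Cd68, a lysosomal protein of macrophages, had 1236 and 916 in Sox17+/- liver, against 959 and 890 in wildtype liver, a log2 difference of 0.20 (SE 0.24) with overlap. Adgre1, which encodes F4/80, the classical mouse macrophage marker, overlapped between genotypes, with a log2 difference of -0.07 (SE 0.20). Cd163, the haemoglobin and haptoglobin scavenger, had dim signals of 72.3 and 70.1 in Sox17+/- liver, against 107 and 52.3 in wildtype liver, and was not tested. Siglec1, a sialic acid receptor, was also too dim to test, with 82.8 and 58.2 in Sox17+/- liver, against 78.7 and 57.9 in wildtype liver.

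The C1q genes, whose products form the recognition molecule of the classical complement pathway, were close to wildtype. C1qa had 2258 and 1903 in Sox17+/- liver, against 2469 and 2142 in wildtype liver. C1qb had 3910 and 3369 in Sox17+/- liver, against 4144 and 3447 in wildtype liver. C1qc had 2441 and 2341 in Sox17+/- liver, against 3001 and 2475 in wildtype liver. The 3 log2 differences were -0.15, -0.06 and -0.19, each below its standard error of 0.21 to 0.22, and only C1qc separated the genotypes.

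The TAM receptor kinases Mertk and Axl bind apoptotic cells through bridging proteins such as GAS6. Mertk had signals of 456 and 512 in Sox17+/- liver, against 665 and 600 in wildtype liver, with a log2 difference of -0.37 (SE 0.20, unadjusted p = 0.13) and no overlap. Axl had 674 and 934 in Sox17+/- liver, against 1001 and 920 in wildtype liver. The genotypes overlapped for Axl, and its log2 difference of -0.27 (SE 0.24) came from the replicate 1 arrays, which differed by -0.56, while the replicate 2 arrays differed by 0.02.

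All 5 Fc receptor, adaptor and related genes had log2 differences below 0 (median -0.27), where 54.2% of all tested genes did, and none passed limma's test. Only Fcgr1 separated the genotypes, and with each array centred on its median 4 of the 5 were below 0 and 0 were separated. The adaptor gene Tyrobp, which encodes DAP12, had 4129 and 2915 in Sox17+/- liver, against 4972 and 3898 in wildtype liver. Fcer1g, the common Fc receptor gamma chain, had 2073 and 1628 in Sox17+/- liver, against 2639 and 1853 in wildtype liver. Fcgr3, a low-affinity IgG receptor, had 1307 and 974 in Sox17+/- liver, against 1720 and 1210 in wildtype liver. For each of these genes the Sox17+/- replicate 1 array lay above the wildtype replicate 2 array, so that the genotypes overlapped although each pair of same-numbered arrays was lower in Sox17+/-. The log2 differences were -0.34 for Tyrobp, -0.27 for Fcer1g and -0.35 for Fcgr3, with standard errors of 0.27 to 0.28. With 1 array left out in turn, the difference ranged from -0.59 to -0.09 for Tyrobp, -0.52 to -0.01 for Fcer1g and -0.60 to -0.10 for Fcgr3. Fcgr1, the high-affinity IgG receptor, had 413 and 429 in Sox17+/- liver, against 547 and 445 in wildtype liver, and did not overlap (log2 difference -0.22, SE 0.21). Aif1, which encodes the actin-binding protein IBA1, had a log2 difference of -0.02 that turned to 0.02 when each array was centred on its median.

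The genes of microbial sensing and costimulation divided. Tlr4, the lipopolysaccharide receptor, had 299 and 269 in Sox17+/- liver, against 163 and 230 in wildtype liver, a log2 difference of 0.51 (SE 0.24, unadjusted p = 0.089). A second Tlr4 probe set above the filter differed by -0.11, so that the probe sets of this gene disagreed. Cd14, the co-receptor of TLR4, had 200.4 and 154 in Sox17+/- liver, against 287 and 185 in wildtype liver, with overlap (log2 difference -0.37, SE 0.29). Ly86, which encodes MD-1, the partner of the TLR4 relative RP105, had 944 and 787 in Sox17+/- liver, against 1326 and 998 in wildtype liver. The genotypes did not overlap for Ly86, with a log2 difference of -0.41 (SE 0.24, unadjusted p = 0.15). The costimulatory ligand gene Cd86 had 402 and 389 in Sox17+/- liver, against 492 and 419 in wildtype liver (log2 difference -0.19, SE 0.21). Tlr2, the receptor for bacterial lipoproteins, had a log2 difference of 0.14 (SE 0.21) with overlap.

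Among the genes of monocyte recruitment, Ccr2, the receptor for CCL2 that marks inflammatory monocytes, had the largest difference. Its signals were 202 and 245 in Sox17+/- liver, against 332 and 394 in wildtype liver, without overlap. The log2 difference was -0.66 (SE 0.22, unadjusted p = 0.030). It was -0.67 and -0.65 within replicate numbers, a pairing that the labels do not state. With 1 array left out in turn, it ranged from -0.79 to -0.54. The Ccr2 probe sets disagreed, since the second above the filter gave 0.24 and the third -0.74. The mean over all 4 Ccr2 probe sets, 1 of them below the filter, gave a log2 difference of -0.22. Itgam, which encodes the integrin CD11b, and Cx3cr1, the receptor for fractalkine, differed in opposite directions within replicate numbers. Itgam had 179 and 125 in Sox17+/- liver, against 148 and 225 in wildtype liver. It differed by 0.25 between the replicate 1 arrays and by -0.77 between the replicate 2 arrays. Cx3cr1 had 168 and 114 in Sox17+/- liver, against 62.8 and 262 in wildtype liver, the widest spread among the members (SE 0.62).

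Of the phagocyte effectors, Lgals3, which encodes the glycan-binding lectin galectin-3, was on the higher side. Its signals were 4405 and 2589 in Sox17+/- liver, against 2570 and 2134 in wildtype liver, and the genotypes were separated by a narrow margin (log2 difference 0.53, SE 0.32). The separation was lost when each array was centred on its median, and without the Sox17+/- replicate 1 array the difference was 0.14. Ctss, the lysosomal protease cathepsin S, had 3240 and 2817 in Sox17+/- liver, against 4453 and 3561 in wildtype liver. The genotypes did not overlap for Ctss (log2 difference -0.40, SE 0.23, unadjusted p = 0.14). Lyz2, the lysozyme of macrophages and neutrophils, had 11841 and 7145 in Sox17+/- liver, against 14666 and 9276 in wildtype liver, and Cybb, the catalytic subunit of the phagocyte NADPH oxidase, had 2045 and 1377 in Sox17+/- liver, against 2302 and 1494 in wildtype liver. For both genes the arrays differed more by replicate number than by genotype, with log2 differences of -0.34 and -0.14. Mpeg1, a pore-forming protein of phagocytes, was level (log2 difference -0.03, and 0.02 with each array centred on its median).

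Spic encodes Spi-C, a relative of PU.1 that in mice is needed for iron-recycling red pulp macrophages and is induced by haem. Its signals were 735 and 796 in Sox17+/- liver, against 536 and 634 in wildtype liver. Both Sox17+/- arrays lay above both wildtype arrays, with a log2 difference of 0.38 (SE 0.21, unadjusted p = 0.13). The other Spic probe set gave a difference of 0.50, with 325 and 394 in Sox17+/- liver, against 231 and 267 in wildtype liver.

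**Figure D2:**
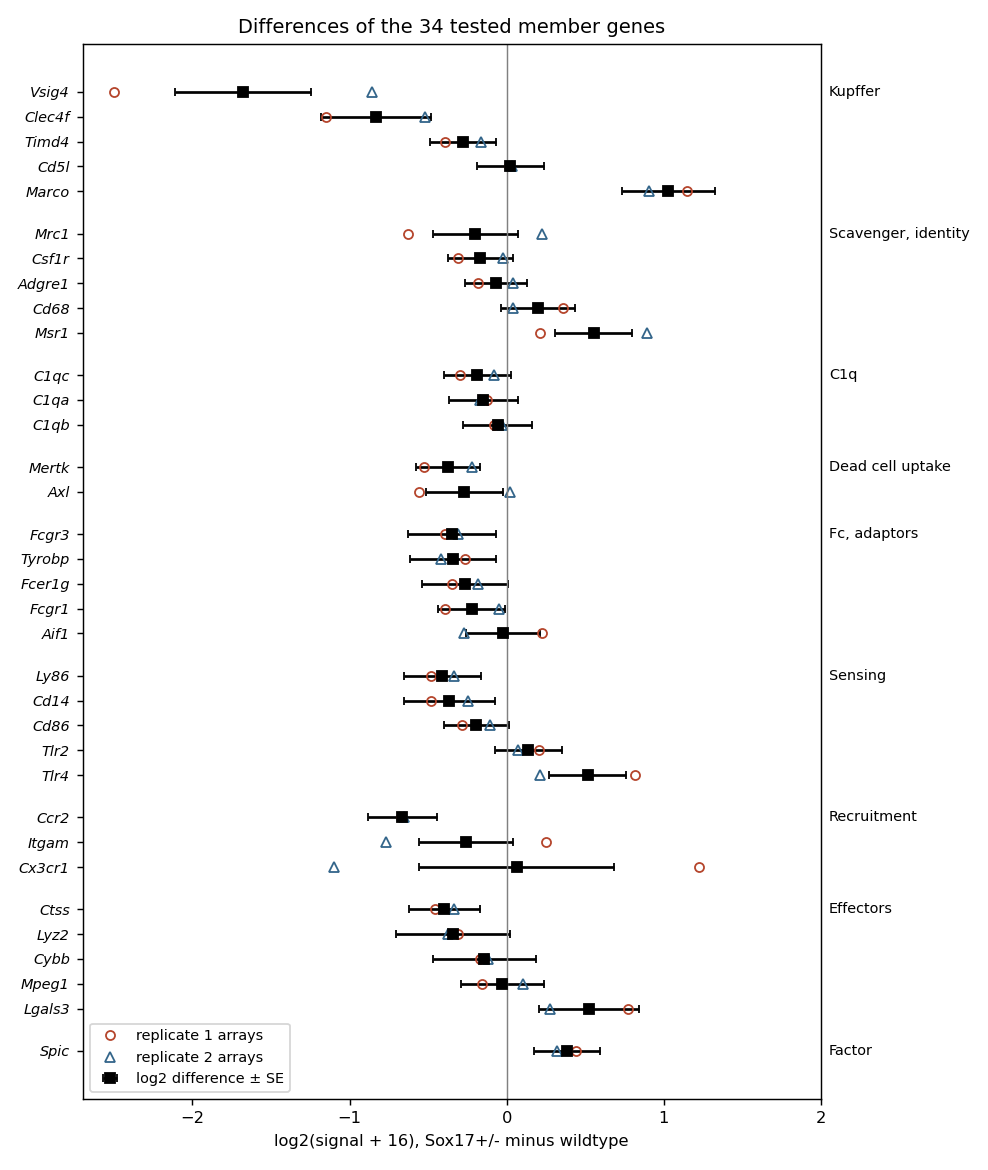
Log2 difference, Sox17+/- minus wildtype on the log2(signal + 16) scale, of the 34 tested member genes by role group. Squares with bars give the estimate ± SE from limma, and open symbols the difference between the replicate 1 arrays (circles) and the replicate 2 arrays (triangles). Vsig4 at -1.68 and Marco at 1.03 mark the ends, and the open symbols of Cx3cr1 lie far apart, at 1.22 and -1.10.

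Across all 34 tested members, 0 passed limma's test as higher and 0 as lower (adjusted p = 0.9999 for each), and over all genes the share called was 0% in each direction. At an unadjusted p under 0.05 the members were Vsig4 and Ccr2 on the lower side, against 2.55% of all tested genes, and Marco on the higher side, against 1.60%. For a single gene, the smallest two-sided p of an exact permutation test is 1 in 3 at this sample size. The genotypes did not overlap for 11 members that were lower in Sox17+/- liver (32.4% of the tested members, against 18.7% of all tested genes) and for 5 that were higher (14.7% against 14.5%). The count of higher members was thus near the background. The count of lower members depended on the choice of scaling. With quantile normalization 10 members were lower (29.4%, against 19.0% of all tested genes) and 4 higher (11.8% against 14.9%). With each array centred on its median, 5 members were lower (14.7%, against 11.1% of all tested genes) and 4 higher (11.8% against 16.1%). Vsig4, Clec4f, Mertk, Ccr2 and Ctss stayed separated on the lower side and Marco, Msr1, Tlr4 and Spic on the higher side. Timd4, Csf1r, C1qc, Fcgr1, Ly86 and Cd86 then overlapped.

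The median log2 difference was -0.28 for the 5 Kupffer genes and -0.19 for the 29 other tested members, against -0.02 for all tested genes. The Kupffer genes ranged from -1.68 to 1.03 and the others from -0.66 (Ccr2) to 0.55 (Msr1). The medians of both sets of members were thus on the same side, while the Kupffer genes were farther apart from each other. The Kupffer median is the value of a single gene, Timd4 (SE 0.21), and does not describe the 5 genes as a group. Of the 34 tested members, 25 had a difference below 0 (73.5%, against 54.2% of all tested genes) and 9 above 0 (against 45.8%). With each array centred on its median this became 23 members, against 45.7% of all tested genes. In 19 members both pairs of same-numbered arrays were lower in Sox17+/- (background 32.3%), and in 8 both were higher (background 25.5%).

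The wildtype replicate 1 array held the highest signal of most members. Of the 34 tested members, 21 were highest on it (61.8%, against 30.5% of all tested genes), among them all 3 C1q genes, Fcgr1, Fcgr3, Fcer1g, Tyrobp, Ctss, Lyz2 and Csf1r. Without it the median of the other members was -0.05, and the median of the Kupffer genes was -0.30. On the Sox17+/- replicate 2 array 15 members were lowest (44.1%, against 23.8% of all tested genes). That array was also lowest for 70% of the hepatocyte, 50% of the neutrophil granule and 0% of the sinusoidal endothelial genes described below. Without that array the median of the other members was -0.09 and that of the Kupffer genes -0.42. The highest signal of any probe set was 56860 and 56988 on the replicate 1 arrays (Sox17+/- and wildtype). On the replicate 2 arrays it was 32468 and 34407. Without the Sox17+/- replicate 1 array the Kupffer median was -0.14, and without the wildtype replicate 2 array the median of the other members was -0.30. The wildtype replicate 1 array also had the highest ratio of 3' to 5' signal for Actb, 1.95, against 1.43 and 1.20 on the Sox17+/- arrays and 1.25 on the wildtype replicate 2 array. Its Actb 3' signal was 11909, against 35014 and 24712 on the Sox17+/- arrays and 27202 on the other wildtype array. The part of these differences between arrays in the members' signals was not tested.

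**Figure D3:**
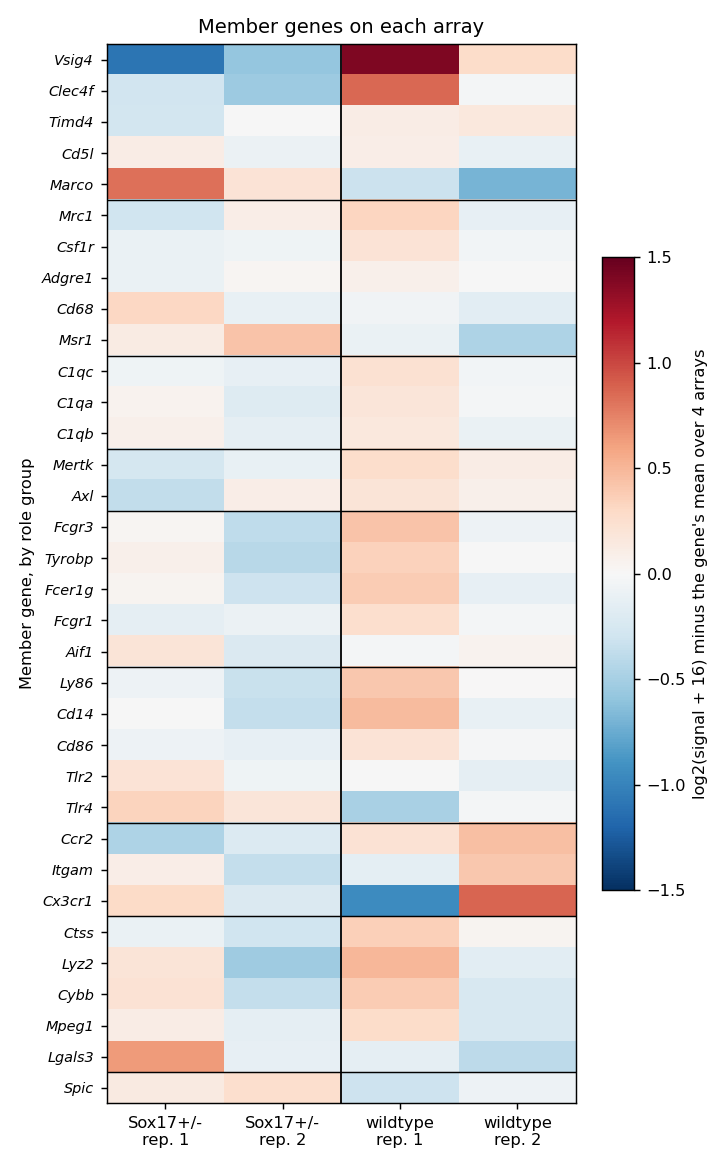
Colour map of log2(signal + 16) minus the mean of each gene over the 4 arrays, for the 34 tested members (down, by role group) on the 2 Sox17+/- and 2 wildtype arrays (across). Red is above and blue below the gene's own mean. The wildtype replicate 1 array holds the highest value for 21 of 34 members, and Marco and Vsig4 run in opposite directions.

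Several probe sets above the filter were present for 10 members. They had the same sign for 7 of these and differed in sign for Ccr2, Cybb and Tlr4. The Csf1r probe sets differed in size. The chosen one and another gave -0.17 and -0.15, while the third, at 1073 and 1304 in Sox17+/- liver, against 1762 and 1386 in wildtype liver, gave -0.40 without overlap. The 3 C1qb probe sets gave -0.11 to -0.06.

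Further genes of the macrophage system were described from lists beside the members. Among 9 tested genes of Kupffer cells and erythroblast island macrophages, 4 were lower without overlap (44.4%, against 18.7% of all tested genes) and 1 higher (11.1% against 14.5%), with a median of -0.14, and 0 passed the test. With each array centred on its median 0 of the 9 were lower or higher without overlap. With quantile normalization 4 were lower (44.4%, against 19.0% of all tested genes) and 0 higher. Slco2b1, an organic anion transporter, had 122 and 202 in Sox17+/- liver, against 265 and 226 in wildtype liver. Fcna, the ficolin A gene, was on the higher side with overlap, at 4469 and 3630 in Sox17+/- liver, against 3876 and 2706 in wildtype liver. Among 17 tested genes of macrophages and leukocytes at large, 1 was lower without overlap (5.88%, against 18.7% of all tested genes) and 2 were higher (11.8% against 14.5%), with a median of -0.02. The lower one was Clec7a, which encodes the beta-glucan receptor Dectin-1, with 612 and 551 in Sox17+/- liver, against 853 and 741 in wildtype liver. Fcgr2b, the inhibitory Fc receptor, which sinusoidal endothelium also expresses, had a log2 difference of -0.31 (SE 0.32).

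The regulators of macrophage identity were centred near 0, with a median of 0.03. Of 13 tested genes, 3 were higher without overlap (23.1%, against 14.5% of all tested genes) and 2 lower (15.4% against 18.7%), not far from the background. Cebpb, which encodes the transcription factor C/EBP beta, had 2770 and 1482 in Sox17+/- liver, against 1288 and 1106 in wildtype liver. Id1, a BMP-responsive inhibitor of helix-loop-helix factors, had 1950 and 1171 in Sox17+/- liver, against 653 and 1066 in wildtype liver. Both had unadjusted p above 0.05 (0.081 and 0.071) and are not confined to macrophages. Of the 10 tested niche ligands and growth factors, 2 were higher and 2 lower without overlap (20% each way, against 14.5% and 18.7% of all tested genes), near the background, with a median of 0.05. With each array centred on its median 0 were lower. The monocyte attractant gene Ccl2 had 629 and 348 in Sox17+/- liver, against 106 and 89.0 in wildtype liver (log2 difference 2.10, SE 0.33, adjusted p = 0.9999 in limma's test). Csf1, the ligand of CSF1R, had 487 and 379 in Sox17+/- liver, against 210 and 319 in wildtype liver (log2 difference 0.70, SE 0.28).

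Iron and haem handling, a duty of Kupffer cells shared with hepatocytes, had 4 of 10 tested genes higher without overlap (40%, against 14.5% of all tested genes) and 0 lower (against 18.7%), with a median of 0.13, and 0 passed the test. The count of higher genes was 3 with each array centred on its median (30%, against 16.1% of all tested genes). With quantile normalization 5 were higher (50%, against 14.9% of all tested genes) and 1 was lower (10% against 19.0%). Hmox1, which encodes haem oxygenase 1, had 9123 and 7538 in Sox17+/- liver, against 2261 and 4948 in wildtype liver (log2 difference 1.31, SE 0.41). Hp, the haptoglobin gene of hepatocytes, differed more by replicate number, at 8381 and 3212 in Sox17+/- liver, against 10777 and 4291 in wildtype liver. Of the monocyte genes, 2 of 10 were higher and 2 lower without overlap (20% each way, against 14.5% and 18.7%), near the background, with a median of -0.05, Cd93 at a log2 difference of 0.51 and Chil3 at -0.42 with an SE of 0.90. In the list of dendritic cell and MHC class II genes, 2 of 6 were lower without overlap (33.3%, against 18.7% of all tested genes) and 1 higher (16.7% against 14.5%). The lower count was 1 with each array centred on its median (16.7%, against 11.1%) and 1 with quantile normalization (16.7%, against 19.0%). Of the class II pathway genes in this list, only H2-Ab1 was on the higher side, at 1033 and 621 in Sox17+/- liver, against 367 and 339 in wildtype liver. The invariant chain gene Cd74 had 286 and 263 in Sox17+/- liver, against 421 and 438 in wildtype liver. The log2 differences were -0.45 for H2-Aa and -0.35 for H2-Eb1, named here after their values were seen.

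Markers of other cells in the tissue differed to unlike extents, and none passed the test. All 5 tested megakaryocyte genes were lower in Sox17+/- liver without overlap, where 18.7% of all tested genes were, and all 5 remained so with each array centred on its median, where 11.1% of all genes were. Their median was -0.26, with summed signals of 21926 and 22412 in Sox17+/- liver, against 27864 and 26453 in wildtype liver. All 4 tested B lymphoid genes had differences below 0 (median -0.46), where 54.2% of all tested genes did. Only 1 of them was lower without overlap (25%, against 18.7%). All 4 were highest on the wildtype replicate 1 array, as were 30.5% of all tested genes. Their median difference was -0.88 between the replicate 1 arrays and 0.06 between the replicate 2 arrays. Their summed signals were 1704 and 1650 in Sox17+/- liver, against 3052 and 1668 in wildtype liver. For neutrophil granule genes, the granules of which also hold the product of Lyz2, the median was 0.02 over 12 genes, and the summed signals were 203724 and 120466 in Sox17+/- liver, against 201726 and 116877 in wildtype liver. The medians were 0.12 for sinusoidal endothelium, 0.13 for stellate cells, -0.07 for erythroid and -0.04 for hepatocyte genes. Of 10 tested sinusoidal endothelial genes, 4 were higher without overlap (40%, against 14.5% of all tested genes) and 1 lower (10% against 18.7%). With each array centred on its median 2 of the 10 were higher (20%, against 16.1%), and with quantile normalization 4 were (40%, against 14.9%). Of 7 tested stellate genes, 2 were higher without overlap (28.6%, against 14.5%) and 0 lower. The count of higher stellate genes was 2 with median centring (28.6%, against 16.1%) and 1 with quantile normalization (14.3%, against 14.9%). The part of these cells in the members' signals was not tested.

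**Figure D4:**
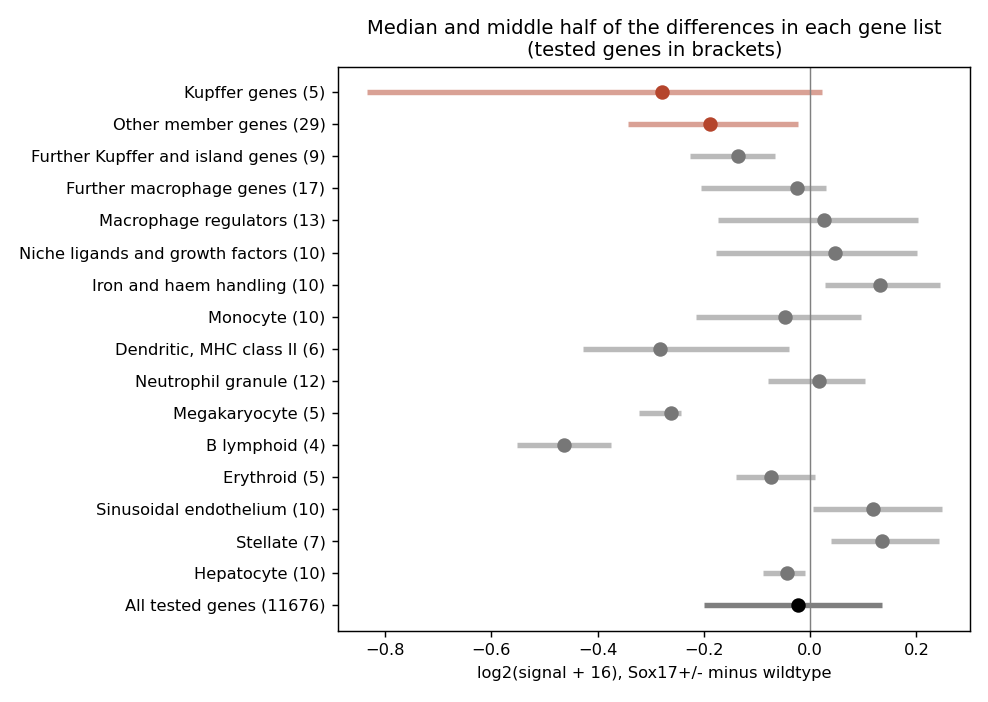
Median (points) and interquartile range (bars) of the log2 differences, Sox17+/- minus wildtype on the log2(signal + 16) scale, for the Kupffer genes, the other members, further gene lists and all tested genes, with the number of tested genes in brackets. The Kupffer genes have the widest bar, and their median of -0.28 and that of the other members at -0.19 lie below the -0.02 of all tested genes.

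The genes outside the list whose values over the 4 arrays were most like those of Vsig4 and Marco were found by the Euclidean distance between log2 values centred on each gene's mean. Nearest to Vsig4 were Anks3, Ces1g, Fam83f, Zfp691 and Klhl13, at distances of 0.14 to 0.56. In Sox17+/- liver Anks3 had 22.0 and 44.8, Fam83f 20.8 and 64.3, and Zfp691 77.1 and 74.7. These lie below the filter cutoff of 89.7, so that the 3 genes passed it through their wildtype signals. Nearest to Marco were Grap2, Aldoa, Cldn7, Depp1 and Ddit4, at distances of 0.10 to 0.16. With 4 arrays these are descriptions of likeness only.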

How the data were processed

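Total RNA of fetal liver was labelled with biotin and hybridised to 4 single-colour Affymetrix arrays, 2 per genotype, per the labels' protocols. The deposited intensity values are probe set signals from MAS5, the algorithm named in the submitters' processing notes. The authors' settings are not stated. They are linear and scaled to a common trimmed mean, and MAS5 makes each signal from its own array, so that dim signals carry much noise. Of 45101 probe sets, 64 controls were left out. Of the remaining 45037, 34945 had 1 gene symbol in the platform annotation, 932 several and 9160 none. Each gene was represented by its brightest probe set with 1 symbol. The brighter 50% of probe sets by mean signal were tested, 22519 in all, a cutoff of 89.7.

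Signals were taken as log2(signal + 16), which understates differences of dim genes. Genotype was the only term of the model, fitted with lmFit and eBayes of limma 3.58.1 under R 4.3.3 (two-sided tests, Benjamini-Hochberg adjustment over all tested probe sets, threshold 0.05). The mean of a genotype is over 2 arrays. The code was tested on simulated data. The alternatives were other pseudocounts, filters and scalings, leaving out each array, the replicate number as a block, another prior and the mean over probe sets. Values on every array are given for the 5 Kupffer genes, for members below the filter, and for up to 4 tested members in each other role group, by the size of their difference. Up to 2 genes are named per other list. The members and lists were chosen with earlier results of these data known. The labels do not say whether separate replicates came from separate litters, and p-values measure only the spread between these arrays.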

Additional observations from a re-analysis of the deposited data

How the results depend on the processing

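No member passed limma's test under any of the 14 alternatives, and the smallest adjusted p of a member was 0.19, for Vsig4 without wildtype replicate 2. Over all probe sets 3 passed with median centring and 3 with a trended, robust prior, against 0 in the main analysis. Leaving out 1 array in turn gave 0 probe sets called in each case, a median of -0.42 to -0.14 for the Kupffer genes, -0.30 to -0.05 for the other members and -0.30 to -0.05 for all members, and a Kupffer median minus that of the others of -0.32 to 0.073. The members without overlap then numbered 13 to 23 lower and 5 to 9 higher, where 2 arrays against 1 separate more readily. Among the brighter 25% of probe sets, which left out Vsig4, the Kupffer median was -0.13 and 3 members were higher without overlap. With median centring 5 members were lower without overlap. Of 35 genes (34 members and Sox17), 24 kept their direction under every alternative that gave them a value. Outside the analyses without 1 array, the direction turned for Cx3cr1 with a pseudocount of 64 (-0.0010) and with the mean over probe sets (-0.49), for Tlr4 with that mean (-0.060), and for Aif1 (0.024) and Mpeg1 (0.019) with median centring. With 1 array left out it turned for Cd5l (range -0.083 to 0.13), Cd68 (-0.013 to 0.41), Mrc1 (-0.42 to 0.023), Cx3cr1 (-0.85 to 0.97), C1qb (-0.19 to 0.074), Aif1 (-0.23 to 0.18), Lyz2 (-0.71 to 0.022), Mpeg1 (-0.28 to 0.23), Cybb (-0.45 to 0.17) and Itgam (-0.54 to 0.018). The cause of these shifts was not tested, and some alternatives also use fewer genes or arrays.

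The labels do not say that replicate numbers pair the arrays, although same-numbered array names share a code of unstated meaning. Deviations from the mean of the genotype had a correlation of 0.38 between same-numbered arrays over 22519 probe sets. When limma was given the replicate number as a block, the log2 differences stayed as they were, the adjusted p of Vsig4, Clec4f, Marco and Ccr2 was 0.65, and 0 members and 0 probe sets passed. A filter on the mean log2 signal, chosen after the data were seen, changed no count of members. No signal on these arrays comes with a detection call here, so the limit set by background is not known.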
